A study of Homo sapiens with 8 samples.

Results

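The transcripts of 10 enzymes of sphingolipid metabolism were followed in PANC-1 cells treated with eupalinolide B (EB), namely the sphingosine kinases SPHK1 and SPHK2, the sphingosine-1-phosphate lyase SGPL1, the sphingosine-1-phosphate phosphatase SGPP1, the ceramide synthases CERS2, CERS5 and CERS6, the acid ceramidase ASAH1, the sphingomyelin synthase SGMS1 and the glucosylceramide synthase UGCG. All 10 were found by symbol among the 20263 genes of the deposited table. PANC-1 is a human line established from a carcinoma of the pancreatic duct. The cells received 10 μM EB, a compound from Eupatorium lindleyanum, or the vehicle dimethyl sulfoxide (DMSO), and RNA was collected after 24 h from 4 biological replicates per group. The data are therefore those of 1 cell line at 1 dose and 1 time. The enzymes were listed by name with the EB against DMSO contrast, the rise of SPHK1 included, already known, so their changes are given here as a description. Calls among them are counted once, beside the share of all genes called, and support nothing.

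Sphingolipids are built on a long-chain base. Ceramide, their central intermediate, is made by ceramide synthases and is then converted to sphingomyelin or to glycosphingolipids, or is cut by ceramidases to sphingosine. Sphingosine kinases phosphorylate sphingosine to sphingosine-1-phosphate (S1P), a signalling lipid that acts through cell-surface receptors, and S1P is removed by phosphatases or, irreversibly, by the lyase. Ceramide is commonly linked to growth arrest and cell death and S1P to survival and migration, and SPHK1 is known as an enzyme that many tumours express at a high level.

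Start windows of SPHK1 are shown first because SPHK1 is the enzyme whose level differed most. RefSeq (GRCh38.p14) gives 3 start windows of this gene on chromosome 17, each running from 250 bases before a start to 50 bases after it. The first and the last are printed 5′ to 3′ on the plus strand, with matches to the AP-1 letters TGANTCA in capitals. AP-1 factors are dimers of FOS and JUN family proteins.
SPHK1 first window, chr17:76382954-76383253: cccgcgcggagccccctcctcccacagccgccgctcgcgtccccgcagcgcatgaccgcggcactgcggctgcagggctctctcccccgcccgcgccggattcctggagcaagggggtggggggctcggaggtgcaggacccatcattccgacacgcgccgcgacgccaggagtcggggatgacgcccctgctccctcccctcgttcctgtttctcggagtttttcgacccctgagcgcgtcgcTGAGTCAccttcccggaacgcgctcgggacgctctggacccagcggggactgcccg
SPHK1 last window, chr17:76385028-76385327: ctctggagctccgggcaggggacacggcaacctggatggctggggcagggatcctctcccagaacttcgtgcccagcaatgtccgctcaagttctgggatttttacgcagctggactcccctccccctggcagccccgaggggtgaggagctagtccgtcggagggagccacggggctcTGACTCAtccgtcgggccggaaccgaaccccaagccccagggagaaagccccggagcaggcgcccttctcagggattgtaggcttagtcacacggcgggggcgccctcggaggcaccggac

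In the first window the match covers bases 245 to 251 of the 300, at the RefSeq start of that window. In the last it covers bases 180 to 186. The gene as placed by GENCODE begins at base 76376584, upstream of all 3 windows. The middle SPHK1 window, chr17:76384359-76384658, holds no such match. On either strand the AP-1 letters stand in 7.71% of all 35116 RefSeq windows of this length. Of the 10 windows found for 7 of the 10 enzymes, these 2 windows of SPHK1 were those with a match, and the windows of SPHK2, SGPL1, CERS5, CERS6, SGMS1 and UGCG had none. The NRF2-type letters TGACNNNGC also matched once in each of the same 2 windows, in the first one over the AP-1 match, against 13.3% of all windows. The ATF4-type letters TGATGNAA, held by 3.62% of all windows, matched in none of the 10 windows. The hypoxia-type core ACGTG (21.4% of all windows) matched in 1 window of SPHK2 and in no other. The GC box GGGCGG (45.0% of all windows) matched in each of the 10 windows except the last of SPHK1 and the first of SPHK2. It was found up to 5 times in a window, in that of CERS5. A match describes letters and not binding, and the values per gene do not tell which start was used.

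The values are TPM, a length-corrected measure scaled to the same sum in each library, so levels can be set side by side between genes. TPM hold no read counts, and the depth behind each value is unknown. The groups were compared on the log2(TPM + 1) scale with limma, using the 11725 genes that reached 1 TPM in at least 4 libraries, and a gene is called at an adjusted p under 0.05. A fold change on this scale understates the change of low genes. All 10 enzymes passed the filter. The 13 mitochondrially encoded genes took 17.0% to 39.0% of the TPM in the DMSO libraries and 11.6% to 20.3% in the EB libraries (p = 0.0571, two-sided, by an exact permutation test on log2 shares), and the highest share was that of DMSO replicate 4. Of the markers of a ductal line, KRT8, KRT18, KRT19 and SOX9 were expressed in every library, whereas KRT7 and EPCAM were below 1 TPM throughout. KRT8, KRT18 and KRT19 were higher and SOX9 lower with EB (limma adjusted p = 0.00109, 6.22e-05, 3.1e-05 and 0.00042). Among markers of acinar, immune, endothelial and fibroblast cells, CEL (3.47 to 4.55 TPM) and COL1A1 (0.806 to 2.17 TPM) were above 1 TPM in any library and the other 10 were at most 0.0329 TPM. COL1A1 was lower with EB (limma adjusted p = 0.00354), and its part in the results was not tested. In bulk RNA, fewer cells that express a gene and less of its RNA per cell cannot be told apart.

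SPHK1 (ENSG00000176170, chromosome 17 of hg38, 76376584 to 76387860, plus strand), which phosphorylates sphingosine near the plasma membrane, was the enzyme with the largest difference. Its TPM was 9.35, 12.2, 10.4 and 6.53 in DMSO replicates 1 to 4 and 104, 90.0, 96.0 and 74.0 in EB replicates 1 to 4. Every EB library lay above every DMSO library, and the lowest EB value was far above the highest DMSO value. The means were 9.63 ± 2.39 TPM in the DMSO group and 91.0 ± 12.7 TPM in the EB group (SD, n = 4 each), a ratio of 9.44. The log2 fold change was 3.13 (standard error 0.19), which placed SPHK1 at rank 2 of the 11725 genes ordered from the largest rise. Both groups had their lowest value in replicate 4. The log2 fold change was 2.98 without DMSO replicate 4, the library with the high mitochondrial share, and lay between 2.98 and 3.26 over 17 other ways of processing. Genes with transcripts as long as that of SPHK1 (1816 nucleotides, in the class of 1743 to 2194) had a median log2 fold change of 0.12. PRPSAP1, which overlaps SPHK1 on the opposite strand, was at 22.3 TPM with DMSO and 23.0 with EB.

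SPHK2 (ENSG00000063176, chromosome 19, 48619291 to 48630717), the second sphingosine kinase, which is found largely in the nucleus and on internal membranes, did not follow SPHK1. Its TPM was 31.1, 23.0, 25.2 and 15.3 with DMSO and 20.2, 22.4, 17.8 and 17.3 with EB, so the EB values lay within the range of the DMSO values. The log2 fold change was −0.24 (standard error 0.20). DBP, which overlaps SPHK2 on the opposite strand, was at 44.2 TPM with DMSO and 13.7 with EB. SPHK2 was the more abundant kinase in each DMSO library and SPHK1 in each EB library. SPHK1 took 23.1%, 34.7%, 29.3% and 29.9% of the summed TPM of the 2 kinases with DMSO. With EB it took 83.7%, 80.1%, 84.4% and 81.1%. This share is formed within a library and does not depend on the scaling between libraries. The summed TPM of both kinases was 33.3 ± 7.99 in the DMSO group and 110.4 ± 13.8 in the EB group (SD, n = 4 each).

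**Figure D1:**
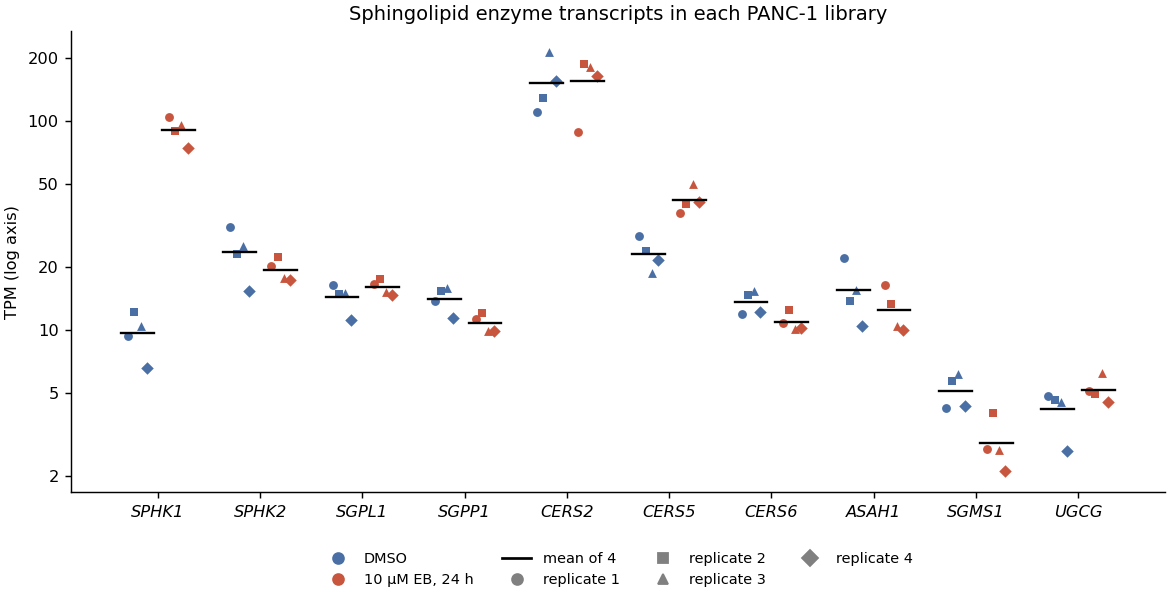
TPM of the 10 enzymes on a log axis, with 1 point per library (symbols for replicates 1 to 4), DMSO in blue, EB in red, and a black line at the mean of each group of 4. SPHK1 moves from 6.53 to 12.2 TPM with DMSO to between 74.0 and 104 TPM with EB, CERS5 and SGMS1 also separate the groups, and the values of the other 7 overlap.

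The enzymes that remove S1P differed much less than SPHK1. SGPL1 (chromosome 10, 70815905 to 70895816), the lyase that cleaves S1P irreversibly, had a TPM of 16.4, 14.8, 15.1 and 11.2 with DMSO and 16.5, 17.5, 15.2 and 14.7 with EB. The groups overlapped, and the log2 fold change was 0.15 (standard error 0.14). Genes with transcripts as long as that of SGPL1 (5778 nucleotides) had a median log2 fold change of −0.45. With the length and GC trend removed, the log2 fold change of SGPL1 was 0.57. The part of length was not tested. PCBD1, which overlaps SGPL1 on the opposite strand, was at 194 TPM with DMSO and 305 with EB. SGPP1 (chromosome 14, 63684216 to 63728065), which returns S1P to sphingosine, had a TPM of 13.8, 15.3, 15.9 and 11.3 with DMSO and 11.3, 11.98, 9.88 and 9.90 with EB. Here 3 EB libraries were below the lowest DMSO library and the fourth was within the range, with a log2 fold change of −0.35 (standard error 0.14). The ratio of SPHK1 to SGPL1 in TPM was 0.570 to 0.825 in the DMSO libraries and 5.05 to 6.31 in the EB libraries. This is a ratio of transcripts and not of enzyme activities.

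Of the ceramide synthases, which differ in the chain length of the fatty acid they attach, CERS5 was the one whose groups separated. CERS5 (ENSG00000139624, chromosome 12, 50129289 to 50167533), which favours palmitoyl chains, had a TPM of 28.0, 24.0, 18.6 and 21.6 with DMSO and 36.4, 39.9, 49.7 and 40.8 with EB. All EB values were above all DMSO values, with means of 41.7 ± 5.64 and 23.1 ± 3.97 TPM (SD, n = 4 each) and a log2 fold change of 0.83 (standard error 0.16). Over the other ways of processing it lay between 0.66 and 0.96. CERS2 (chromosome 1, 150960583 to 150975003), which makes ceramides with very long chains, had the highest median TPM of the 10 enzymes in both groups. Its TPM was 110.3, 129, 213 and 155 with DMSO and 89.0, 187, 180.4 and 163 with EB, a wide spread within each group, and the log2 fold change was 0.02 (standard error 0.27). SETDB1, which overlaps CERS2 on the opposite strand, was at 26.4 TPM with DMSO and 15.3 with EB. CERS6 (chromosome 2, 168456249 to 168775134), which like CERS5 favours palmitoyl chains, had a TPM of 11.9, 14.7, 15.4 and 12.1 with DMSO and 10.8, 12.5, 10.1 and 10.2 with EB. The groups overlapped through EB replicate 2, and the log2 fold change was −0.29 (standard error 0.13).

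CERS2 took 79.7% ± 5.65 of the summed TPM of these 3 synthases in the DMSO group and 73.7% ± 5.71 in the EB group (SD, n = 4 each), and the libraries of the groups overlapped. This sum is not that of all ceramide synthases. It leaves out CERS1 (means of 30.3 TPM with DMSO and 27.5 with EB) and CERS4 (32.8 and 39.0 TPM). The share of CERS5 was 18.7%, 14.3%, 7.53% and 11.5% with DMSO and 26.8%, 16.6%, 20.7% and 19.0% with EB, which also overlapped, because EB replicate 2 was below DMSO replicate 1. The share of CERS6 was 7.33% ± 1.22 and 5.52% ± 1.65 (SD, n = 4 each). The ratio of CERS5 to CERS6, the pair with a like chain preference, separated the groups. It was 1.21 to 2.35 in the DMSO libraries and 3.19 to 4.91 in the EB libraries. Genes with transcripts as long as that of CERS5 (2507 nucleotides) had a median log2 fold change of 0.04. The median was −0.45 for those as long as that of CERS6 (6804 nucleotides). With the length and GC trend removed, the log2 fold change was 0.85 for CERS5 and 0.19 for CERS6. The part of length in this ratio was not tested.

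**Figure D2:**
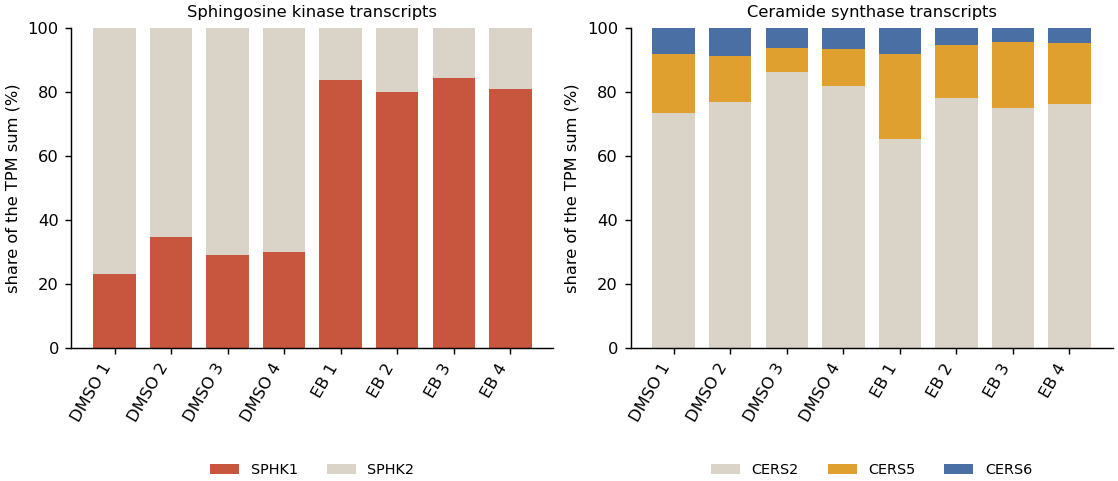
Share of the summed TPM, in percent, for SPHK1 and SPHK2 (left) and for CERS2, CERS5 and CERS6 (right), with 1 stacked bar per library. SPHK1 takes 23.1% to 34.7% of the kinase sum in the DMSO bars and 80.1% to 84.4% in the EB bars, whereas CERS2 is the largest part of every synthase bar.

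Among the enzymes that turn ceramide over, SGMS1 was lower with EB. SGMS1 (ENSG00000198964, chromosome 10, 50305586 to 50625163), which makes sphingomyelin from ceramide in the Golgi, had a TPM of 4.23, 5.71, 6.17 and 4.33 with DMSO and 2.69, 4.0, 2.65 and 2.096 with EB. Every EB value was below every DMSO value, although EB replicate 2 came close to the lowest DMSO library, and the log2 fold change was −0.67 (standard error 0.18). Genes with transcripts as long as that of SGMS1 (3717 nucleotides, in the class of 3223 to 3829) had a median log2 fold change of −0.17. ASAH1 (ENSG00000104763), the lysosomal acid ceramidase, had a TPM of 22.2, 13.8, 15.6 and 10.5 with DMSO and 16.4, 13.3, 10.4 and 9.93 with EB, which overlap, with a log2 fold change of −0.27 (standard error 0.23). ACER3, the 1 other ceramidase tested, had a log2 fold change of 0.20 and did not pass the test. UGCG (chromosome 9, 111896814 to 111935369), which opens the synthesis of most glycosphingolipids, had a TPM of 4.84, 4.63, 4.53 and 2.63 with DMSO and 5.07, 4.90, 6.21 and 4.51 with EB. The low value of DMSO replicate 4 stood apart from the other 3, and the log2 fold change was 0.28 (standard error 0.17) with that library and 0.12 without it.

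By level, the order with DMSO was CERS2, SPHK2, CERS5, SGPL1, ASAH1, SGPP1, CERS6, SPHK1, SGMS1 and UGCG, from a median of 142 TPM down to 4.58 TPM. The ranges of neighbours overlapped from SPHK2 to CERS5, from SGPL1 through ASAH1, SGPP1 and CERS6 to SPHK1, and from SGMS1 to UGCG, so the order within these runs is not resolved by the spread of the libraries. With EB, SPHK1 moved from place 8 to place 2, at a median of 93.0 TPM. Its range overlapped that of CERS2 above it, through EB replicate 1 of CERS2, and was separate from that of CERS5 below it. The lowest place changed from UGCG to SGMS1, whose EB ranges were separate.

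At a limma adjusted p under 0.05, 2 of the 10 enzymes were called higher with EB (SPHK1 and CERS5), where 15.2% of all genes tested were, and 1 was called lower (SGMS1), where 25.1% were (40.3% in either direction). These counts are close to the background and say nothing particular about the enzymes as a group. The thresholds that the study names are a p under 0.05 and a logFC above 1.5. They were read here as an unadjusted p and an absolute log2 fold change. With them SPHK1 alone of the enzymes was called higher (63 or 0.537% of all genes) and none lower (181 or 1.54%). These totals differ from those that the paper reports, so the calls are not the study's own. The EB values of SPHK1 and CERS5 lay wholly above the DMSO values, as for 16.6% of all genes, and those of SGMS1 wholly below, as for 20.3%. The median log2 fold change was −0.11 over the 10 enzymes and −0.11 over all genes tested. Without DMSO replicate 4, SPHK2, SGPP1 and CERS6 joined SGMS1 among the lower genes, so that 4 enzymes were lower, where 37.0% of all genes tested were lower in that fit.

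**Figure D3:**
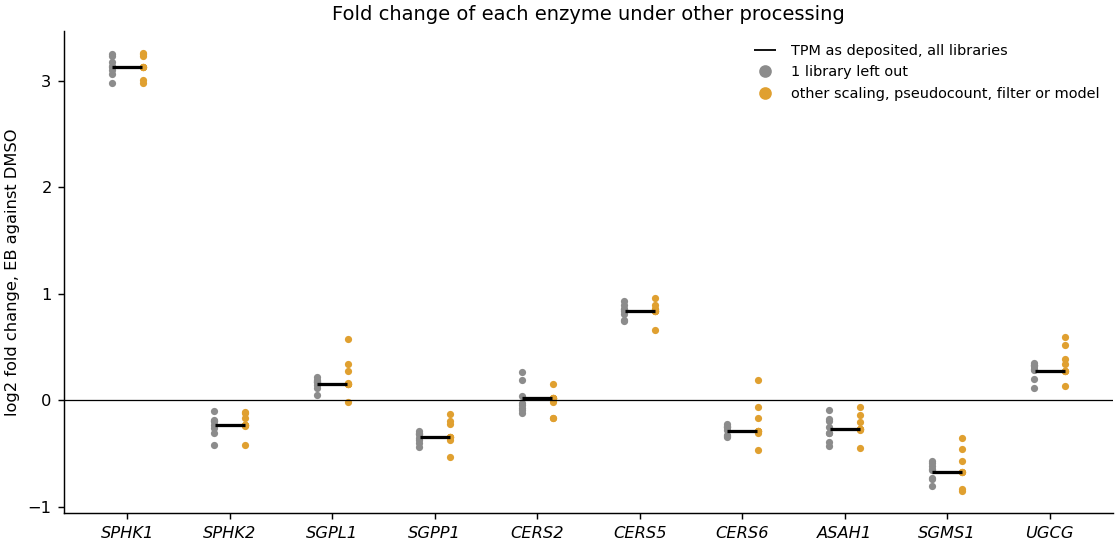
Log2 fold change of each enzyme, EB against DMSO, with the TPM as deposited and all libraries (black line), with 1 library left out in turn (grey) and with another scaling, pseudocount, filter or model (orange). SPHK1 stays between 2.98 and 3.26 and CERS5 between 0.66 and 0.96, while CERS2, SGPL1 and CERS6 have values on both sides of 0.

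The other genes of the pathway were taken from a list of 64 genes grouped by role. Of these, 42 passed the filter, 3 were listed at 0 in every library and 22 in all were not tested. With EB, 8 of the 42 rose (19.0%, against 15.2% of all genes) and 4 fell (9.52%, against 25.1%) at a limma adjusted p under 0.05, and 30 did not pass the test. Their median log2 fold change was 0.00. None reached an absolute log2 fold change of 1.5. With median-ratio scaling the counts were 14 higher and 3 lower, where 26.8% of all genes were higher and 25.6% lower. Without DMSO replicate 1, 2 or 3 or EB replicate 1, 3 or 4 the lower count was 2, where 17.7% to 20.8% of all genes were lower.

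Of the receptors and exporters that carry the S1P signal, S1PR2 rose. S1PR2 (ENSG00000267534), a G protein-coupled receptor for S1P, had a TPM of 4.44, 3.75, 3.88 and 2.69 with DMSO and 6.90, 6.15, 5.44 and 5.88 with EB. All EB values lay above all DMSO values, with a difference of 0.61 ± 0.15 (SE) on the log2 scale (limma adjusted p = 0.00962). S1PR2 overlaps DNMT1 on the same strand, whose TPM was 104.0 with DMSO and 97.1 with EB. S1PR5 was the most abundant of the receptors in every library, at 15.0 ± 2.52 TPM in the DMSO group and 14.0 ± 1.62 TPM in the EB group (SD, n = 4 each), and its groups overlapped (log2 fold change −0.08, standard error 0.15, limma adjusted p = 0.698). S1PR1 was at most 0.0536 TPM and S1PR3 at most 0.276 TPM in any library, and S1PR4 was listed at 0 in all 8. The exporter SPNS2 was at 0.3597 to 1.298 TPM with DMSO and 0.318 to 0.881 TPM with EB, and MFSD2B was at most 0.246 TPM. None of these low genes was tested. The 3 other genes tested for the removal of S1P, PLPP1, PLPP2 and ALDH3A2, did not pass the test, with log2 fold changes of 0.028, −0.20 and 0.052.

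In the synthesis of the long-chain base, 2 of 8 tested genes rose (against 15.2% of all genes) and none fell (against 25.1%). ORMDL2, one of the ORMDL proteins that restrain serine palmitoyltransferase, went from 9.15 ± 2.14 to 17.6 ± 1.61 TPM (SD, n = 4 each), with all EB values above all DMSO values and a difference of 0.90 ± 0.17 (SE) on the log2 scale (limma adjusted p = 0.00289). ORMDL2 overlaps 2 genes on the opposite strand. DNAJC14 was at 24.0 TPM with DMSO and 13.0 with EB, and ENSG00000257390 at 0.118 TPM with DMSO and 4.07 with EB. KDSR, the reductase of the second step, rose by 0.50 on the log2 scale (standard error 0.16, limma adjusted p = 0.035), but its EB and DMSO libraries overlapped. This call was lost with nuclear genes only (limma adjusted p = 0.0759) and without DMSO replicate 1, 3 or 4 or EB replicate 1, 2 or 3 (p of 0.0501 to 0.0956). Neither of the 2 other ceramide synthases tested, CERS1 (log2 fold change −0.14) and CERS4 (0.25), passed the test.

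Among sphingomyelinases, which release ceramide from sphingomyelin, 1 of 3 tested genes rose (33.3%, against 15.2% of all genes) and none fell (against 25.1%). SMPD1, the acid sphingomyelinase of the lysosome, had a TPM of 16.1, 20.3, 16.8 and 12.8 with DMSO and 30.4, 25.1, 32.2 and 24.1 with EB, which do not overlap. Its log2 fold change was 0.73 (standard error 0.16, limma adjusted p = 0.0065). The 2 other tested genes of the sphingomyelin synthase family did not pass the test. Their log2 fold changes were −0.25 (SGMS2, standard error 0.36) and −0.59 (SAMD8, standard error 0.24).

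Of 5 genes for ceramide phosphorylation and lipid transfer, 2 rose (against 15.2% of all genes) and 1 fell (against 25.1%). GLTP, which carries glycolipids between membranes, had a TPM of 32.0, 36.0, 32.4 and 27.7 with DMSO and 57.8, 67.5, 60.2 and 65.1 with EB. This was the largest rise among the 42 other genes, with groups that do not overlap and a difference of 0.95 ± 0.12 (SE) on the log2 scale (limma adjusted p = 0.000562). CPTP, which carries ceramide-1-phosphate, rose by 0.52 (standard error 0.15, limma adjusted p = 0.0186). CERK, the kinase that makes ceramide-1-phosphate, went from 19.5 ± 3.97 to 12.1 ± 1.26 TPM (SD, n = 4 each), with all EB values below all DMSO values (log2 fold change −0.63, standard error 0.17, limma adjusted p = 0.0144). Genes with transcripts as long as that of CERK (4442 nucleotides) had a median of −0.28. With the length and GC trend removed, the log2 fold change of CERK was −0.35. CPTP was not past the threshold without EB replicate 3 (limma adjusted p = 0.0563).

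Of 11 genes of glycosphingolipid breakdown tested, 2 rose and 2 fell, and of 5 genes of its synthesis 1 fell and none rose. Among all genes, 15.2% rose and 25.1% fell. GALC, the lysosomal galactosylceramidase, had a TPM of 7.51, 7.53, 6.09 and 6.45 with DMSO and 2.22, 3.48, 2.66 and 2.47 with EB. It had the largest fall of the 42 genes, with groups that do not overlap and a difference of −1.10 ± 0.14 (SE) on the log2 scale (limma adjusted p = 0.000488). GLA, the lysosomal alpha-galactosidase, rose from 64.7 ± 7.96 to 106.9 ± 12.9 TPM (SD, n = 4 each), a difference of 0.72 ± 0.14 (SE) on the log2 scale (limma adjusted p = 0.00386). Genes with transcripts as long as that of GLA (1318 nucleotides) had a median log2 fold change of 0.24. With the length and GC trend removed, the log2 fold change of GLA was 0.46. GLA overlaps the ribosomal protein gene RPL36A on the opposite strand, which was at 1882 TPM with DMSO and 2284 with EB, and the readthrough gene RPL36A-HNRNPH2, which was at 174 and 137 TPM. GM2A, a lysosomal activator protein of ganglioside breakdown, was lower by a difference of −0.37 ± 0.11 (SE) on the log2 scale (limma adjusted p = 0.0246). In GLA and GM2A the groups did not overlap. CCDC69, which overlaps GM2A on the opposite strand, was at 10.8 TPM with DMSO and 5.03 with EB. The call of GM2A was lost with median-ratio scaling (limma adjusted p = 0.0636), with the length and GC trend removed (0.113) and when any 1 library other than DMSO replicate 4 or EB replicate 2 was left out (highest p 0.0751). B4GALT5, a lactosylceramide synthase that acts after UGCG, fell by 0.49 on the log2 scale (standard error 0.16, limma adjusted p = 0.0381), with groups that overlap. This call was lost with the length and GC trend removed (limma adjusted p = 0.156) and without DMSO replicate 1, 2 or 3 or EB replicate 1, 3 or 4 (p of 0.0674 to 0.106).

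**Figure D4:**
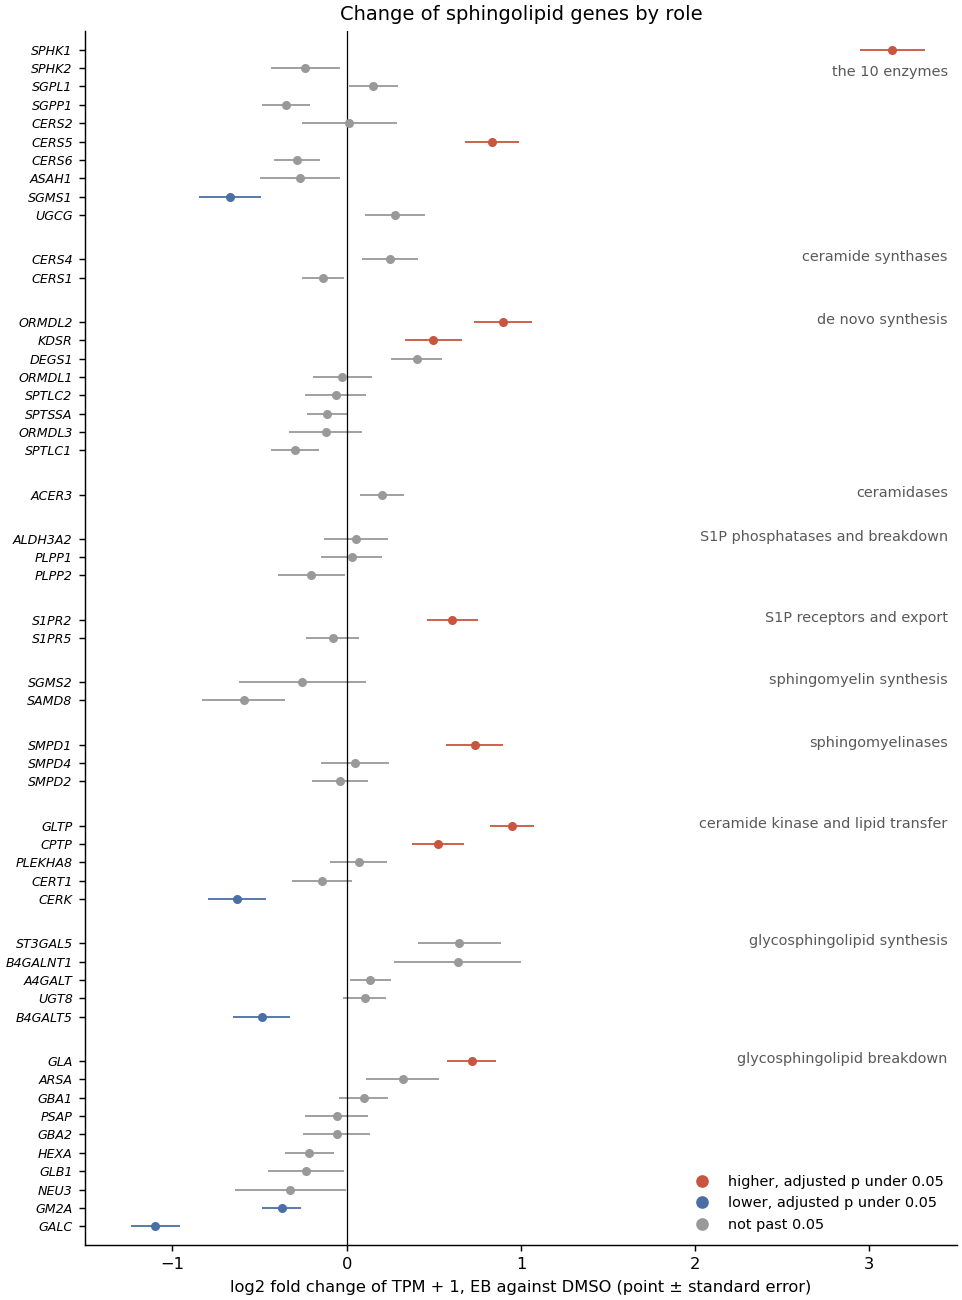
Log2 fold change of TPM + 1, EB against DMSO, for the 10 enzymes and other sphingolipid genes tested, ordered by role, with the standard error as a bar and the colour giving a limma adjusted p under 0.05. SPHK1 at 3.13 stands far to the right, and the other genes lie between −1.10 (GALC) and 0.95 (GLTP).

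The genes whose pattern was most like that of SPHK1 were found by Pearson's r of log2(TPM + 1) over the 8 libraries, as a description. The highest r were those of ASNS (0.998), the asparagine synthetase, TM4SF1 (0.997), a membrane protein of the tetraspan type, CCN1 (0.996), a matricellular protein, RFLNB (0.996), a filamin-binding protein, and KRT19 (0.995), a keratin of simple epithelia. The most negative were those of DLX4 (−0.998), a homeobox factor, MX1 (−0.994), an interferon-induced GTPase, CLIP3 (−0.992), HNRNPH1 (−0.9901), a splicing factor, and GSTM4 (−0.989). Of the 11724 genes compared, 1017 had an r above 0.9 and 606 an r below −0.9. All 8 points come from the same libraries, and the difference between the groups makes up most of each r. For deviations from the group means, r with SPHK1 was weaker in all 10, at 0.793 (KRT19) to 0.904 (RFLNB) for the first 5 genes and −0.405 (GSTM4) to −0.949 (DLX4) for the other 5. These deviations also enter the r by which the 10 genes were picked, so they are not a separate check.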

How the data were processed

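PANC-1 RNA libraries (DMSO and 10 μM EB for 24 h, 4 each) were analysed from 1 table. The authors deposited TPM, corrected for length and normalized within each library. Their methods name CLC Genomics Workbench, HISAT2 and StringTie, and both GrCM38 and hg38 as the genome. The identifiers are human. Whether reads were counted by strand is not given in the sources used here. Columns headed C were read as DMSO and those headed H as EB, the only other group. No read counts were used, so depth is unknown. Symbols, positions and canonical transcript lengths came from GENCODE 44 (hg38), which named 20148 of 20263 identifiers.

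Log2(TPM + 1) was fitted with limma 3.58.1 in R 4.3.3 (eBayes without trend or block, prior degrees of freedom 3.88) over all genes with at least 1 TPM in at least 4 libraries, with Benjamini-Hochberg adjustment over all 11725. The fit was tested on simulated data. The fit was repeated with a pseudocount of 0.1, without the filter, with a minimum of 5 TPM, median-ratio scaling, quantile normalization, nuclear genes only, removal of the length and GC trend, an intensity trend, a replicate block, the study's thresholds and each library left out. The enzymes, lists and alternatives were chosen with earlier results of these data known. Named are the 10 enzymes, other pathway genes at an adjusted p under 0.05 without overlap of the groups, the S1P receptors and exporters, and the 5 genes at each end of the likeness to SPHK1. Some genes that these rules take in are counted but not reported here. KDSR, B4GALT5, CERS1, CERS4, SGMS2, SAMD8, PLPP1, PLPP2, ALDH3A2 and ACER3 were named after their values were seen, to complete counts, as were protein-coding genes that overlap a named one. Promoter windows came from RefSeq (GRCh38.p14). Python 3.11.15, pandas 2.3.3, scipy 1.17.1 and matplotlib 3.10.9 were also used.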

Additional observations from a re-analysis of the deposited data

Results flagged for a closer look

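Of 70 groups of 4 libraries examined, 3 held a library far from the other 3, where chance gives about 1 in 20. UGCG was at 2.63 TPM in DMSO replicate 4, below 4.53 TPM or more in the other 3 DMSO libraries. S1PR1 was at 0.0242 TPM in DMSO replicate 3 and listed at 0 in the other 3. MFSD2B was at 0.246 TPM in DMSO replicate 2 and at most 0.0391 TPM in the others.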

How the results depend on the processing

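SPHK1 and CERS5 stayed higher with EB in the 17 fits run another way. GLTP, ORMDL2, SMPD1, GLA, S1PR2, GALC and CERK kept their direction and their side of the adjusted p threshold in all 17. Of the 10 enzymes, 4 were higher with the length and GC trend removed, with median-ratio scaling and with quantile normalization (SGPL1 and UGCG in addition), where 24.4%, 26.8% and 23.7% of all genes were, and 1 under the study's thresholds, against 2. The number lower was 0 with a minimum of 5 TPM (23.3% of all genes), where SGMS1 was not tested. It was 0 with quantile normalization (23.6%) and 0 under the study's thresholds (1.54%), against 1 (25.1%). It was 2 with median-ratio scaling (25.6%) and 4 with nuclear genes only (41.4%). With 1 library left out it was 1 to 4 (4 without DMSO replicate 4, with 37.0% of all genes). Of the other genes, 16 were higher with the length and GC trend removed (24.4% of all genes) and 14 with median-ratio scaling (26.8%). The number higher was 15 with quantile normalization (23.7%) and 0 under the study's thresholds (0.537%), against 8 (15.2%). There 10 were lower with nuclear genes only (41.4% of all genes) and 0 under the study's thresholds (1.54%), against 4 (25.1%). With 1 library left out, 2 to 6 of the other genes were lower (6 without DMSO replicate 4, with 37.0% of all genes). The log2 fold change of SGPL1 was −0.021 with nuclear genes only, that of CERS6 0.19 with the length and GC trend removed, and that of S1PR5 0.044 with median-ratio scaling and 0.11 with quantile normalization. For CERS2 it was −0.019 with the length and GC trend removed, −0.17 with nuclear genes only, −0.16 with quantile normalization and −0.12 to 0.26 with 1 library left out. The median over all genes moved from −0.11 to 0.01 with median-ratio scaling, 0.02 with quantile normalization or the trend removed, and −0.28 with nuclear genes only. The cause of these changes was not tested. With the replicate number as a block, 2 enzymes were lower (SGPP1 and SGMS1), with 30.1% of all genes, and 9 other genes higher, with 19%. Libraries with the same number had correlations of their deviations of 0.18, 0.05, −0.09 and 0.28. Those with different numbers had correlations of −0.24 to 0.13. Whether the numbers pair the libraries was not tested. The TPM hold no depth, which limits what can be said of genes under 1 TPM.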
